A study of Homo sapiens with 14 samples.

Results

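The genes described here are 10 members or close partners of the transforming growth factor beta (TGF-beta) family, chosen by name among the 60683 Ensembl gene identifiers counted in the series. They are the TGF-beta ligands TGFB1, TGFB2 and TGFB3, the TGF-beta-induced matrix gene TGFBI, the inhibin/activin beta subunits INHBA and INHBB, the stress-induced ligand GDF15, the bone morphogenetic proteins BMP2 and BMP4, and the activin-binding protein follistatin (FST). RNA from 2 established human cancer cell lines was sequenced, 14 libraries in 7 groups of 2. A549, a lung cancer line, was left untreated, or received palbociclib (2 μM), indisulam (0.5 μM) or the combination of the pair at these doses over 10 days, or PF-06873600 (0.5 μM) over 7 days. SUM159, a triple-negative breast cancer line, was left untreated or treated for 7 days with 0.5 μM PF-06873600. Palbociclib inhibits the cell cycle kinases CDK4 and CDK6, PF-06873600 is described as an inhibitor of CDK2, CDK4 and CDK6, and indisulam is a sulfonamide that causes degradation of the splicing factor RBM39. The collection time of the untreated cells is not given in the sources used here. PF-06873600 was given for 7 days and the other treatments for 10, so drug and time cannot be told apart between them. The lines were grown in different media, that of SUM159 with insulin and hydrocortisone, so line and medium cannot be told apart in comparisons between them. The series describes its duplicates as technical, so all p-values below measure only the spread between technical duplicates of one culture experiment.

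TGF-beta family ligands are secreted as dimers and signal through paired type I and type II receptor kinases that phosphorylate SMAD proteins. TGF-beta and activin receptors act mainly on SMAD2 and SMAD3, and BMP receptors on SMAD1, SMAD5 and SMAD9. TGF-beta itself leaves the cell in a latent form that is stored in the matrix and must be released, while follistatin and related antagonists bind ligands outside the cell. In cells that stop dividing after drug treatment, several of these ligands are known components of the senescence-associated secretory phenotype, and GDF15 is a widely used marker of cell stress.

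Total counts on genes ran from 13060374 to 21149256 per library, and levels are given as CPM, the count scaled to that total. A floor of 3 counts was set as the lowest detectable level, which lies between 0.142 and 0.23 CPM and covers counting error only. Between duplicates the chi-square of the counts, divided by its degrees of freedom, was 1.61 to 9.57, so none was a copy of another. It was highest in the untreated group of each line, 9.57 in A549 and 9.05 in SUM159, against which treatments are compared. The labelled lines were checked against their markers. All 5 epithelial markers were above the floor in A549, summing to between 4672 and 5429 CPM in untreated cells and up to 11850 CPM with PF-06873600. The keratin genes carried this difference, with means of 2126 CPM untreated and 5656 CPM with PF-06873600 for KRT8 and of 2521 and 5455 CPM for KRT18, while EPCAM went from 19.4 to 8.04 CPM and CDH1 from 156 to 95.6 CPM. In SUM159 the epithelial markers summed to between 699 and 755 CPM untreated and between 428 and 447 CPM with PF-06873600. Nearly all of this was KRT8 (means of 417 CPM untreated and 266 CPM treated) and KRT18 (309 and 170 CPM). KRT19, EPCAM and CDH1 were each under 1 CPM in both groups. The 5 mesenchymal or basal-like markers (VIM, CDH2, ZEB1, FN1 and CD44) summed to between 2897 and 3092 CPM in untreated A549, between 4951 and 4963 CPM with the combination and between 4132 and 4288 CPM with PF-06873600, and in SUM159 to between 8291 and 8678 CPM untreated and between 18910 and 18980 CPM with PF-06873600. FN1 carried the rise in SUM159, with means of 3146 CPM untreated and 13737 CPM with PF-06873600, while VIM fell from 4162 to 3609 CPM. There CD44 went from 930 to 1318 CPM, CDH2 from 180 to 195 CPM and ZEB1 from 66.8 to 82.5 CPM. Markers of leukocytes, endothelium and fibroblasts (10 genes) summed to between 6.27 and 19.5 CPM in A549. In SUM159 they rose from between 120 and 121 CPM to between 947 and 985 CPM with PF-06873600, of which the fibroblast marker DCN, itself a TGF-beta-binding proteoglycan, made up 851 CPM. CD3E was at 0 in all 14 libraries. These shifts accompany the treatments and their part in the changes below was not tested. RNA from bulk cultures cannot tell a change in every cell from a change in the share of cells.

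Per kilobase of exon, which allows levels of different genes to be compared, TGFBI led in both lines, with a mean of 54.3 CPM per kb in untreated A549 and 258 CPM per kb in untreated SUM159. In untreated A549 it was followed by TGFB1 (34.3 CPM per kb), GDF15 (19.0 CPM per kb), BMP4 (12.7 CPM per kb), INHBB (9.07 CPM per kb) and TGFB2 (4.24 CPM per kb). FST (1.61 CPM per kb), BMP2 (0.446 CPM per kb) and TGFB3 (0.22 CPM per kb) were low, and INHBA (0.0041 CPM per kb) had 1 count in the 2 libraries. In untreated SUM159 the order after TGFBI was TGFB1 (43.8 CPM per kb), TGFB2 (5.21 CPM per kb), BMP4 (5.04 CPM per kb), FST (2.81 CPM per kb) and TGFB3 (0.807 CPM per kb). GDF15 (0.251 CPM per kb), BMP2 (0.156 CPM per kb), INHBA (0.0631 CPM per kb) and INHBB (0.0289 CPM per kb) closed the list.

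**Figure D1:**
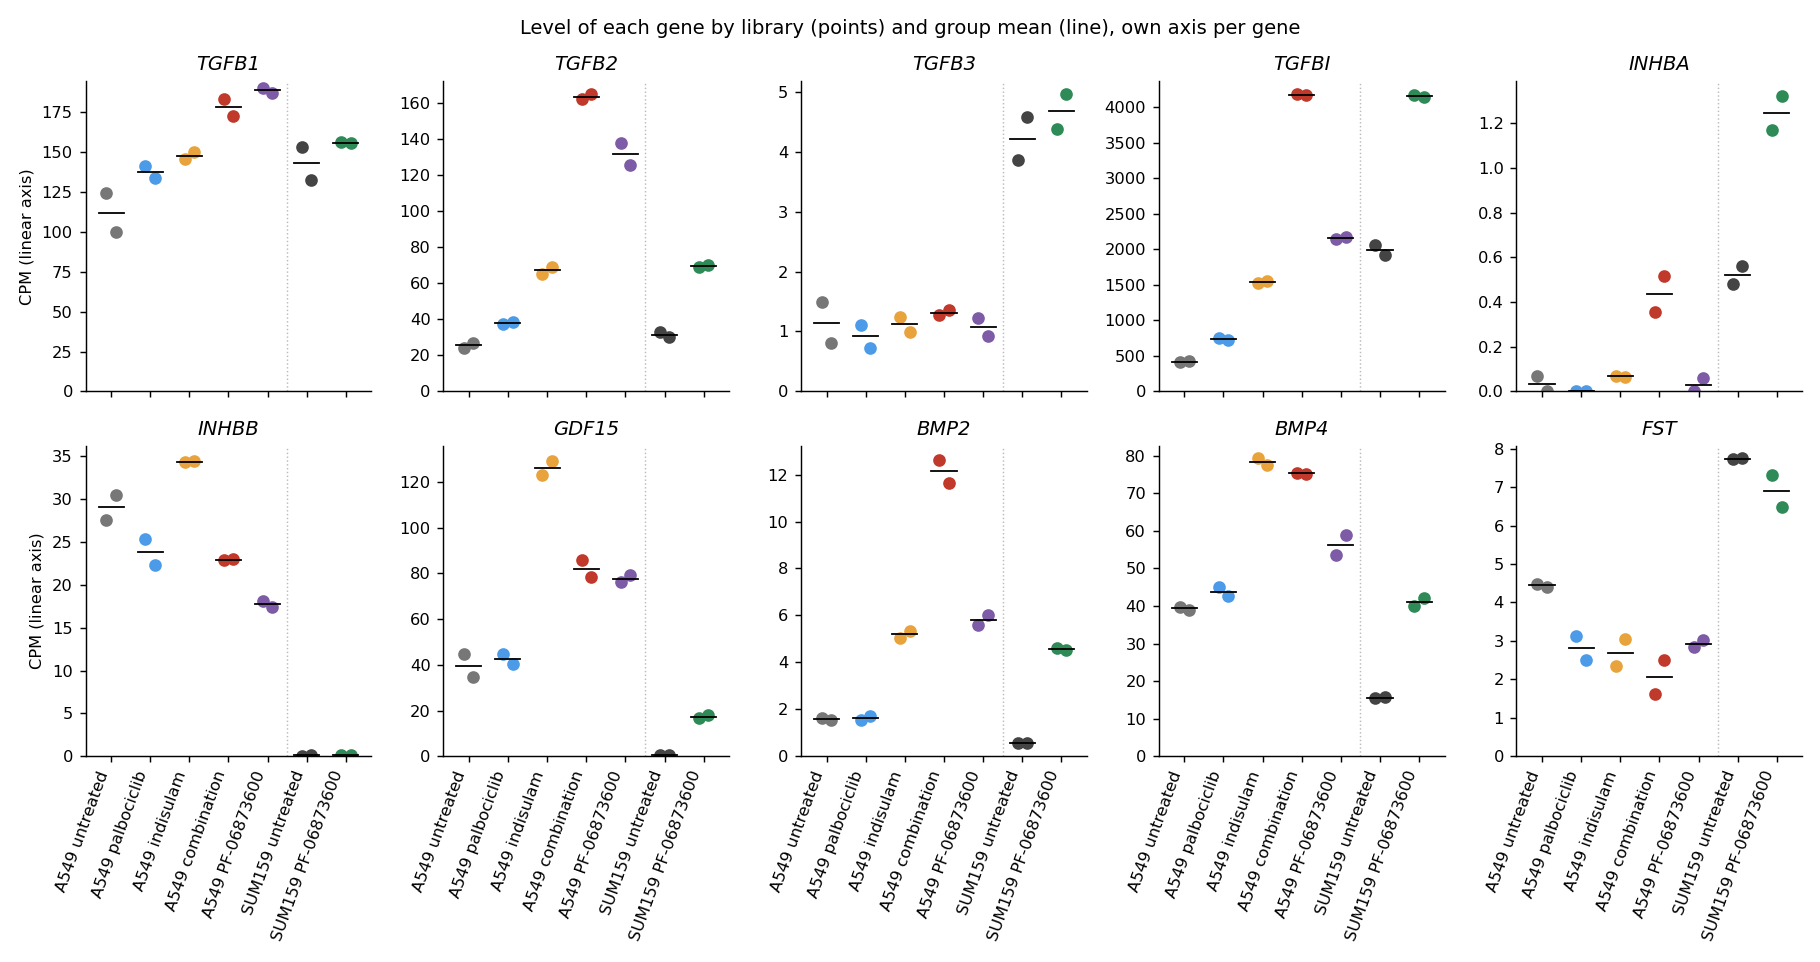
Level of each of the 10 genes in CPM (vertical axis, linear, its own range for each gene) in the 14 libraries (points) of the 7 groups, with the group mean as a line and the A549 groups left of the dotted line. TGFB2 and TGFBI stand highest in A549 with the combination, GDF15 with indisulam alone, and INHBB is near 0 in all 4 SUM159 libraries.

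Treatments differed in how many members they changed, from 4 of 9 tested with palbociclib to 8 of 9 with indisulam, the combination or PF-06873600 in A549. An edgeR quasi-likelihood test was applied to all genes that passed a filter on low counts, with Benjamini-Hochberg adjusted p under 0.05 counted as a call. INHBA was too low to be tested within A549 and INHBB within SUM159, which left 9 of the 10 members in each line. All A549 comparisons with untreated cells share the same 2 untreated libraries. With palbociclib alone 3 members rose and 1 fell, where 8.3% of all genes tested were called higher and 7.4% lower (15.7% in either direction), and the calls of TGFB1 and INHBB were lost under several alternatives given below. With indisulam 7 rose and 1 fell, where 28% of all genes were higher and 17.5% lower (45.5%). The combination gave 6 higher and 2 lower, where 35.1% of all genes were higher and 30% lower (65.2%), and PF-06873600 gave 6 higher and 2 lower, where 28.5% were higher and 27.8% lower (56.3%). The calls of INHBB and FST with indisulam and of FST with PF-06873600 were also lost under alternatives given below. In SUM159, PF-06873600 gave 6 higher and 0 lower, where 38.1% of all genes were higher and 35.6% lower (73.7%), so the 6 of 9 members called were no larger a share than among all genes. The INHBA call in SUM159 was lost under alternatives given below. The balance over all genes depended on scaling. When libraries were scaled by their totals, higher genes made up 61.6% of the calls with indisulam, 53.9% with the combination and 55.4% for the combination against palbociclib, and under edgeR's TMM scaling 50.4%, 47.6% and 47.3%, so that lower genes were then the larger share in the last 2. The median log2 fold change of the members tested was 0.09 with palbociclib, 0.99 with indisulam, 0.93 with the combination, 0.75 with PF-06873600 in A549 and 1.14 with PF-06873600 in SUM159, while that of all genes tested lay between -0.01 and 0.08.

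**Figure D2:**
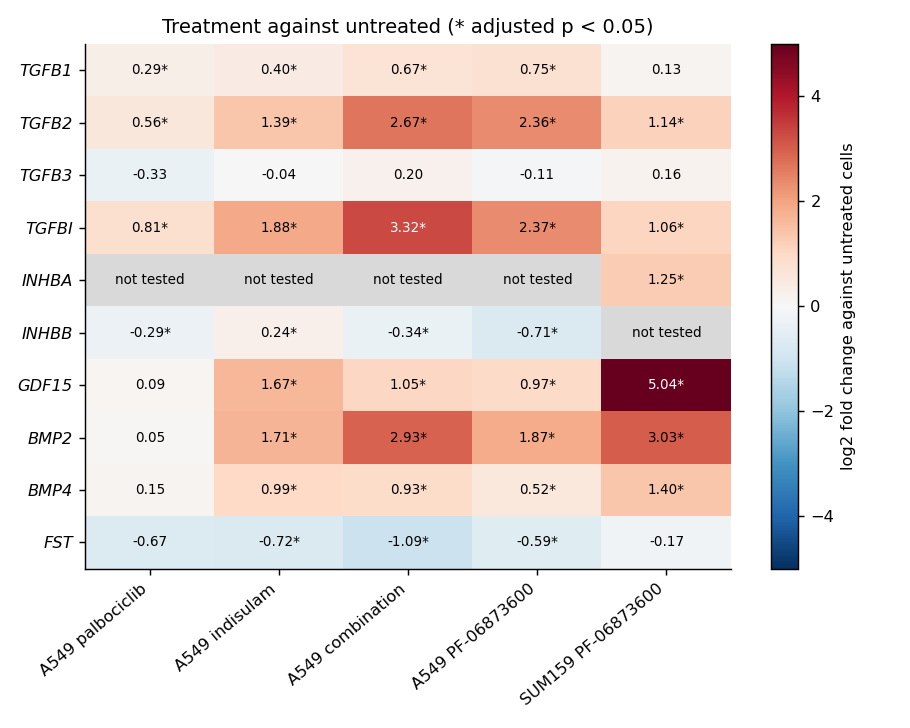
Log2 fold change against untreated cells of the same line for each gene (rows) and treatment (columns) from edgeR, with red for higher and blue for lower and an asterisk for an adjusted p under 0.05. TGFB2, TGFBI and BMP2 hold the largest increases in A549 with the combination (2.67, 3.32 and 2.93), and GDF15 the largest in SUM159 (5.04).

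TGFB2 encodes the ligand isoform best known from embryonic development and epithelial-mesenchymal transition, and TGFBI a secreted adhesion protein of the matrix first identified through its induction by TGF-beta. Both rose with every treatment in both lines. Their upstream sequences are shown as a description, and a part of these sequences in the changes was not tested. The 250 bases before the RefSeq start of TGFB2 (GRCh38.p14, chr1:218345086-218345335, + strand, over an exon of the antisense gene TGFB2-AS1) and of TGFBI (GRCh38.p14, chr5:136028738-136028987, + strand) read 5′ to 3′ as follows, with capitals for matches on either strand to a TATA box (TATAAA), the SMAD element (CAGAC), an AP-1 site (TGANTCA) or a cyclic AMP response element (TGACGTCA). No searched motif contains another.
TGFB2: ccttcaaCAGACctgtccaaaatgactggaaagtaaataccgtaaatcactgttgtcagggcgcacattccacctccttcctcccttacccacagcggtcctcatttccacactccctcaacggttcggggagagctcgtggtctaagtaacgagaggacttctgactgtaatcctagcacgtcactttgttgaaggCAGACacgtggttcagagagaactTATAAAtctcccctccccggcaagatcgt
TGFBI: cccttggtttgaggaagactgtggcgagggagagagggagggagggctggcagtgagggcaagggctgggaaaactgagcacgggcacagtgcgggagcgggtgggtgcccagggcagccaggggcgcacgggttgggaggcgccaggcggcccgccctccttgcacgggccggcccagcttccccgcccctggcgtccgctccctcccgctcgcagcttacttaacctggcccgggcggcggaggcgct
The capitals in TGFB2 mark a TATAAA from position -29 to -24 and 2 CAGAC, the core letters that SMAD proteins can bind, from -243 to -239 and from -53 to -49. The TGFBI sequence holds none of the 4 motifs and has 3 GGGCGG boxes. Of 34788 promoter sequences of this length, 10.8% hold TATAAA, 38% CAGAC, 6.59% TGANTCA, 1.64% TGACGTCA and 42.6% GGGCGG.

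In A549, TGFB2 (ENSG00000092969, chromosome 1, 218345336 to 218444619, + strand) stood at 24.3 and 26.9 CPM in untreated cells, 37.1 and 38.6 CPM with palbociclib, 65.3 and 68.9 CPM with indisulam, 162 and 165 CPM with the combination and 138 and 126 CPM with PF-06873600. These 5 groups did not overlap, and the order ran from untreated cells through palbociclib, indisulam and PF-06873600 to the combination. The place of PF-06873600 in this order mixes drug and time, as given above. The log2 fold change over untreated cells was 0.56 (SE 0.08, adjusted p = 0.000282 in edgeR) with palbociclib, 1.39 (SE 0.08, adjusted p = 4.22e-09) with indisulam, 2.67 (SE 0.08, adjusted p = 6.57e-13) with the combination and 2.36 (SE 0.08, adjusted p = 6.45e-12) with PF-06873600. In SUM159, TGFB2 rose with PF-06873600, from 32.9 and 30.2 CPM to 68.9 and 69.8 CPM (log2 fold change 1.14, SE 0.07, adjusted p = 9.87e-10). Reads from TGFB2-AS1, which overlaps its exons on the other strand, numbered at most 10 in a library.

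TGFBI (ENSG00000120708, chromosome 5, 136028988 to 136063818, + strand) was the most abundant member and followed the same order in A549. Its level was 409.9 and 429 CPM in untreated cells, 746 and 726 CPM with palbociclib, 1529 and 1550.2 CPM with indisulam, 4182 and 4169.7 CPM with the combination and 2148 and 2175 CPM with PF-06873600. Each A549 group stood clear of the next. The combination raised it 9.96-fold over untreated cells (log2 fold change 3.32, SE 0.06, adjusted p = 6.26e-15 in edgeR), indisulam 3.67-fold, palbociclib 1.76-fold and PF-06873600 5.16-fold, all 3 with an adjusted p at or below 1.6e-07. In SUM159 it rose from 2061 and 1925 CPM to 4178 and 4139 CPM with PF-06873600 (2.09-fold, adjusted p = 1.47e-08). Untreated SUM159 stood just below A549 with PF-06873600, and the treated SUM159 libraries overlapped those of A549 with the combination.

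TGFB1, the isoform that most adult cells make and store in latent form, changed less. TGFB1 (ENSG00000105329, chromosome 19, 41301587 to 41353922, - strand) stood at 124 and 99.7 CPM in untreated A549, 141 and 133 CPM with palbociclib, 145 and 149.7 CPM with indisulam, 183 and 173 CPM with the combination and 189.9 and 187 CPM with PF-06873600. All treated libraries were above both untreated ones. The log2 fold change was 0.29 (SE 0.08, adjusted p = 0.0276 in edgeR) with palbociclib, 0.40 (SE 0.08, adjusted p = 0.00138) with indisulam, 0.67 (SE 0.08, adjusted p = 5.58e-06) with the combination and 0.75 (SE 0.08, adjusted p = 2.47e-06) with PF-06873600. The palbociclib call was lost without untreated replicate 2 (log2 fold change 0.14, adjusted p = 0.127), without either palbociclib library (adjusted p = 0.157 and 0.068) and with only the compared groups in the model (adjusted p = 0.159). In SUM159 its level was 153 and 133 CPM untreated and 156 and 155 CPM with PF-06873600, a log2 fold change of 0.13 (SE 0.06) that did not pass (adjusted p = 0.0928). Without SUM159 untreated replicate 1 that value was 0.23 and passed (adjusted p = 3.37e-05), and it passed with the replicate number as a block (adjusted p = 0.0443). Exons of TGFB1 overlap those of HNRNPUL1 on the other strand, which had between 4272 and 10180 counts per library. The libraries were stranded but the strand setting of the counting is not given in the sources used here, so a contribution of HNRNPUL1 reads cannot be told apart.

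TGFB3, the third isoform, was low throughout. TGFB3 (ENSG00000119699, chromosome 14, 75958097 to 75983011, - strand) lay between 0.732 and 1.5 CPM in the 10 A549 libraries, where all 5 groups overlapped their neighbours, and no A549 treatment passed the test. In SUM159 it stood at 3.86 and 4.57 CPM untreated and at 4.38 and 4.96 CPM with PF-06873600 (log2 fold change 0.16, SE 0.18, adjusted p = 0.453 in edgeR). Per kilobase of exon, TGFB2 made up 11.1% ± 2.25 (SD, n = 2) of the 3 TGF-beta ligands in untreated A549, 12.9% ± 0.781 with palbociclib, 19.6% ± 0.27 with indisulam, 33.03% ± 1.23 with the combination and 27.3% ± 1.06 with PF-06873600. In SUM159 its share was 10.5% ± 0.356 untreated and 19.1% ± 0.184 with PF-06873600. TGFB1 stayed the most abundant of the 3 in every group, from 66.7% ± 1.25 with the combination to 88.4% ± 2.08 in untreated A549. These shares use the TGFB1 counts as they stand, so the limit given above for HNRNPUL1 reads applies to them.

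Activins are dimers of inhibin beta subunits, INHBA forming activin A and INHBB activin B. Untreated A549 transcribed INHBB, while untreated SUM159 held few counts of either subunit. INHBB (ENSG00000163083, chromosome 2, 120346136 to 120351803, + strand) held 864 counts in untreated A549 and 3 in untreated SUM159, a ratio of 316 after scaling by library totals (95% exact interval 108 to 1533, counting error only). INHBA (ENSG00000122641, chromosome 7, 41667168 to 41705834, - strand) held 1 count in untreated A549 and 17 in untreated SUM159. In A549, INHBB was 27.6 and 30.5 CPM in untreated cells, 25.3 and 22.3 CPM with palbociclib, 34.3 and 34.5 CPM with indisulam, 22.9 and 23.0 CPM with the combination and 18.1 and 17.4 CPM with PF-06873600. It fell with PF-06873600 (log2 fold change -0.71, SE 0.09, adjusted p = 1.52e-05 in edgeR) and with the combination (-0.34, SE 0.09, adjusted p = 0.0042). Its fall with palbociclib (-0.29, adjusted p = 0.0405) and rise with indisulam (0.24, adjusted p = 0.0346) passed narrowly. Both were lost with TMM scaling (adjusted p = 0.0516 and 0.153), with DESeq2 (0.195 and 0.349), without a filter on low counts (0.0624 and 0.0711) and with only the compared groups (0.177 and 0.101). The palbociclib call was also lost with the replicate block (0.0528), without untreated replicate 2 (0.150) and without palbociclib replicate 2 (0.323), and the indisulam call without untreated replicate 1 (0.153) and without either indisulam library (0.105 and 0.116).

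INHBA stayed at or below 1 count in 8 of the 10 A549 libraries, and the 2 combination libraries had 5 and 8. The ratio of the summed counts, 13 with the combination against 1 untreated, was 13.03 with a 95% exact interval of 1.96 to 554. In SUM159, INHBA had 8 and 9 counts untreated and 20 and 28 with PF-06873600, a ratio of 2.40 (95% exact interval 1.36 to 4.46). The edgeR log2 fold change was 1.25 (SE 0.36, adjusted p = 0.00595), and the call was lost with DESeq2 (adjusted p = 0.108) and without PF-06873600 replicate 2 (log2 fold change 1.15, adjusted p = 0.0822).

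FST (ENSG00000134363, chromosome 5, 53480626 to 53487134, + strand), whose product binds and neutralises activins, was low in A549 and fell there with 3 of the 4 treatments. It stood at 4.49 and 4.40 CPM in untreated cells, 3.12 and 2.50 CPM with palbociclib, 2.35 and 3.04 CPM with indisulam, 1.63 and 2.51 CPM with the combination and 2.83 and 3.03 CPM with PF-06873600. All 8 treated libraries were below both untreated ones. The palbociclib and indisulam groups overlapped every other treated group, while both libraries with PF-06873600 lay above both with the combination. The log2 fold change was -1.09 (SE 0.23, adjusted p = 0.00091 in edgeR) with the combination, -0.72 (SE 0.22, adjusted p = 0.0173) with indisulam, -0.59 (SE 0.22, adjusted p = 0.0327) with PF-06873600 and -0.67 (SE 0.22, adjusted p = 0.055) with palbociclib. DESeq2 gave an adjusted p of 0.082 for indisulam and 0.19 for PF-06873600. The indisulam call was lost without indisulam replicate 1 (adjusted p = 0.14), and the PF-06873600 call without any one of the 4 libraries compared (0.0654 to 0.127). The palbociclib value passed without a filter on low counts (0.0335). In SUM159, FST was 7.72 and 7.77 CPM untreated and 7.31 and 6.48 CPM with PF-06873600 (log2 fold change -0.17, SE 0.14, adjusted p = 0.285).

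GDF15, a divergent family member that signals through the brainstem receptor GFRAL and is induced by cell stress, had its highest level with indisulam alone. GDF15 (ENSG00000130513, chromosome 19, 18374731 to 18389176, + strand) stood at 44.5 and 34.8 CPM in untreated A549, 44.5 and 40.3 CPM with palbociclib, 123 and 129 CPM with indisulam, 85.8 and 78.3 CPM with the combination and 76.0 and 79.5 CPM with PF-06873600. The palbociclib libraries overlapped the untreated ones, and both combination libraries were below both indisulam libraries. Indisulam raised GDF15 3.18-fold (log2 fold change 1.67, SE 0.10, adjusted p = 5.65e-09 in edgeR), the combination 2.07-fold (adjusted p = 2.74e-07) and PF-06873600 1.96-fold (adjusted p = 9.85e-07), while the value with palbociclib was 0.09 on the log2 scale (SE 0.10, adjusted p = 0.598). Without untreated replicate 1 the palbociclib value was 0.28 and passed (adjusted p = 0.035), and without untreated replicate 2 it was -0.07 (adjusted p = 0.619). In SUM159, GDF15 was nearly silent in untreated cells, with 0.482 and 0.564 CPM (8 and 9 counts), and rose to 16.5 and 18.2 CPM with PF-06873600. This 32.9-fold rise (log2 fold change 5.04, SE 0.21, adjusted p = 1.96e-11) was the largest among the members in any comparison of treated with untreated cells. Even so, treated SUM159 stayed below every A549 library.

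GDF15 and TGFB2 hold a TATAAA at the same place in their core promoters, and TGFB1 and TGFBI hold none there. The 30 bases from -40 to -11 before the RefSeq starts in GRCh38.p14 (TGFB2 chr1:218345296-218345325, + strand, GDF15 chr19:18386118-18386147, + strand, TGFB1 chr19:41353933-41353962, - strand, TGFBI chr5:136028948-136028977, + strand) are set side by side, with TATAAA in capitals.
TGFB2: cagagagaactTATAAAtctcccctccccg
GDF15: agtccggggacTATAAAggccggtccggca
TGFB1: ggggcggcttcaaaaccccctgccgaccca
TGFBI: ctcgcagcttacttaacctggcccgggcgg
In both genes the TATAAA begins at -29. TGFB3 also has a TATAAA, from -30 to -25 before one of its RefSeq starts, and INHBA has one from -11 to -6. A link between this motif and the changes with treatment was not tested. TGFB1 had 6 GGGCGG boxes within 250 bases of its start. GENCODE also places exons of other GDF15 transcripts over this stretch. Sequences of 9 of the 10 members were found.

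The BMPs regulate bone, cartilage and epithelial development. BMP2 (ENSG00000125845, chromosome 20, 6767686 to 6780246, + strand) was low in untreated A549, at 1.63 and 1.53 CPM, and did not move with palbociclib beyond its spread (1.56 and 1.71 CPM, log2 fold change 0.05, SE 0.24). It was 5.05 and 5.35 CPM with indisulam, 12.6 and 11.6 CPM with the combination and 5.59 and 5.997 CPM with PF-06873600. These 3 groups were separate from each other and from untreated cells. Indisulam raised it 3.28-fold (adjusted p = 6.17e-06 in edgeR), the combination 7.63-fold (log2 fold change 2.93, SE 0.17, adjusted p = 1.54e-09) and PF-06873600 3.66-fold (adjusted p = 1.12e-06). In SUM159, BMP2 rose from 0.543 and 0.564 CPM to 4.62 and 4.54 CPM with PF-06873600, 8.18-fold (log2 fold change 3.03, SE 0.28, adjusted p = 1.41e-07).

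BMP4 (ENSG00000125378, chromosome 14, 53949736 to 53958761, - strand) rose less but from a higher level. Its values in A549 were 39.8 and 39.1 CPM in untreated cells, 44.97 and 42.6 CPM with palbociclib, 79.5 and 77.5 CPM with indisulam, 75.5 and 75.2 CPM with the combination and 53.6 and 59.0 CPM with PF-06873600. The indisulam and combination groups were highest, and neither palbociclib library overlapped the untreated ones. The log2 fold change was 0.99 (SE 0.07, adjusted p = 4.7e-08 in edgeR) with indisulam, 0.93 (SE 0.07, adjusted p = 2.51e-08) with the combination, 0.52 (SE 0.07, adjusted p = 2.41e-05) with PF-06873600 and 0.15 (SE 0.07, adjusted p = 0.196) with palbociclib. In SUM159 it rose from 15.6 and 15.7 CPM to 40.04 and 42.3 CPM (2.64-fold, adjusted p = 8.13e-10). A non-coding gene on the other strand overlaps BMP4 exons and had between 1 and 16 counts per library.

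The combination was next compared with each single drug. Against palbociclib alone 6 members were higher and 0 lower, where 33.5% of all genes were called higher and 26.9% lower (60.4% in either direction). Against indisulam alone 4 were higher and 2 lower, where 22% of all genes were higher and 23.9% lower (46%). TGFB2, TGFBI and BMP2 were higher with the combination than with indisulam by 1.28 (SE 0.07), 1.44 (SE 0.05) and 1.22 (SE 0.14) on the log2 scale, with an edgeR adjusted p of 1.77e-09, 4.78e-11 and 5.51e-06. TGFB1 was higher by 0.27 (SE 0.08, adjusted p = 0.0138), a call lost without indisulam replicate 1 (adjusted p = 0.0825) and without combination replicate 1 (adjusted p = 0.117). GDF15 was lower by a log2 fold change of -0.62 (SE 0.09, adjusted p = 5.84e-05) and INHBB of -0.58 (SE 0.09, adjusted p = 9.58e-05). For BMP4 the difference from indisulam was -0.06 (SE 0.07, adjusted p = 0.502).

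An interaction term tested whether the combination differed from the sum of the single-drug changes on the log2 scale. It passed for 4 members, 3 higher and 1 lower, where 10.7% of all genes were called higher and 14.5% lower (25.2% in either direction). The combination exceeded the sum by 0.72 (SE 0.11, adjusted p = 0.000162 in edgeR) for TGFB2, 0.63 (SE 0.07, adjusted p = 1.65e-05) for TGFBI and 1.17 (SE 0.28, adjusted p = 0.00711) for BMP2. It fell short of the sum for GDF15, by -0.72 (SE 0.14, adjusted p = 0.00136). The term did not pass for TGFB1 (-0.02, SE 0.12), BMP4 (-0.21, SE 0.10), TGFB3, FST or INHBB. For INHBB it was -0.29 (adjusted p = 0.114) and passed without untreated replicate 2 (-0.36, adjusted p = 0.0396).

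**Figure D3:**
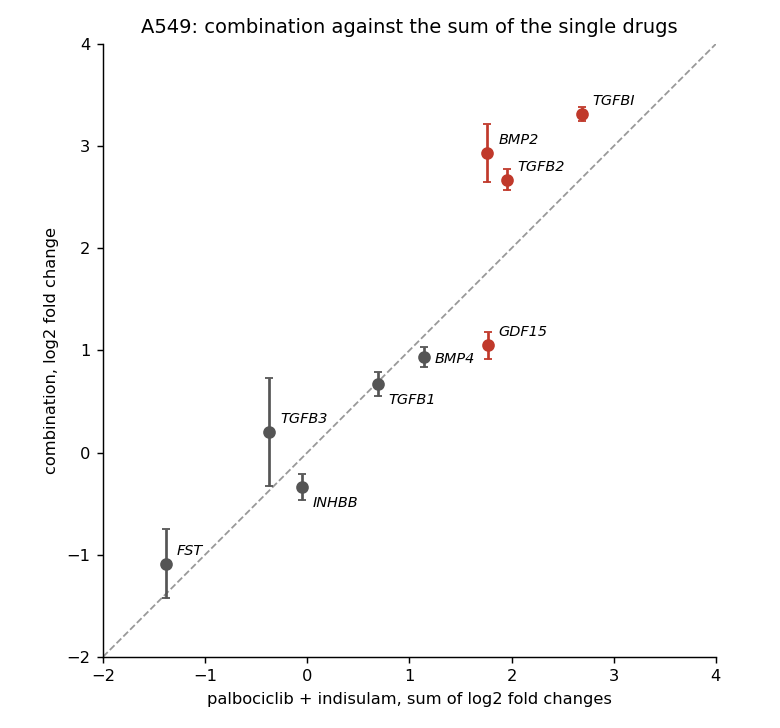
Log2 fold change over untreated A549 with the combination (vertical axis) against the sum of the log2 fold changes with palbociclib and with indisulam (horizontal axis) for the 9 genes tested. The dashed line marks equality, bars are the standard error of the interaction term, and red points passed its test, with TGFB2, TGFBI and BMP2 above the line and GDF15 below it.

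The untreated lines differed in all 10 members, 6 higher and 4 lower in SUM159, where 41.9% of all genes were higher and 36.8% lower (78.7% in either direction). TGFBI was 4.75-fold higher in SUM159 (log2 fold change 2.25, SE 0.06, adjusted p = 2.09e-17 in edgeR) and TGFB3 3.66-fold (adjusted p = 3.88e-06), with smaller differences for FST (1.74-fold), TGFB1 (1.28-fold) and TGFB2 (1.23-fold, adjusted p = 0.00235). The TGFB2 call was lost with DESeq2 (adjusted p = 0.0594). GDF15 was far lower in SUM159 (log2 fold change -6.22, SE 0.20, adjusted p = 6.94e-16), and BMP4 (-1.34, SE 0.08) and BMP2 (-1.503, SE 0.30) were lower too.

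The response to PF-06873600, at one dose and time in both lines, differed between them for 6 members, with 3 differences above 0 and 3 below, where 25.8% of all genes were above and 27.2% below (53% in either direction). The rise in SUM159 was larger for GDF15 by 4.06 on the log2 scale (SE 0.28, adjusted p = 3.61e-10 in edgeR), for BMP2 by 1.16 (SE 0.34, adjusted p = 0.0105) and for BMP4 by 0.88 (SE 0.10, adjusted p = 6.82e-07). It was smaller for TGFB1 (-0.62, SE 0.12, adjusted p = 0.000145), TGFB2 (-1.22, SE 0.10, adjusted p = 7.64e-09) and TGFBI (-1.30, SE 0.08, adjusted p = 6.43e-11). The BMP2 difference was lost without SUM159 untreated replicate 1 (1.13, adjusted p = 0.0524). For FST, TGFB3, INHBA and INHBB the difference did not pass, and the last 2 were near the count floor in one of the lines.

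**Figure D4:**
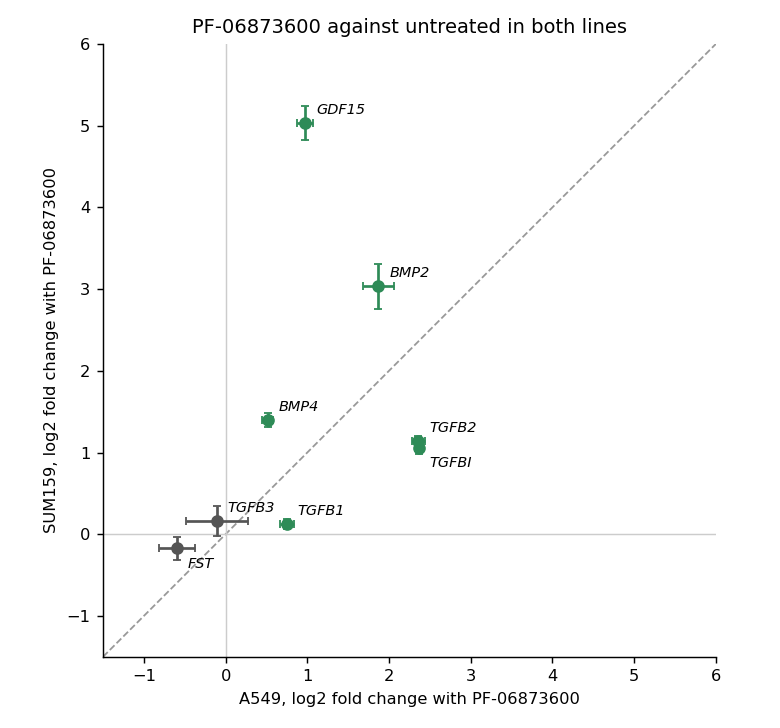
Log2 fold change with PF-06873600 over untreated cells in SUM159 (vertical axis) against A549 (horizontal axis) for the 8 genes tested in both lines, with standard errors as bars and a dashed line of equality. Green points differed between the lines at an adjusted p under 0.05, with GDF15, BMP2 and BMP4 above the line and TGFB1, TGFB2 and TGFBI below it.

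The rest of the pathway was followed in lists of genes. These lists were chosen with earlier results of these data known, so their counts are a description. Of 17 genes known to respond to TGF-beta, 5 rose with palbociclib, 16 with indisulam, 15 with the combination and 12 with PF-06873600 in A549, where 8.3%, 28%, 35.1% and 28.5% of all genes rose, and the number that fell was 0, 0, 0 and 1. The median log2 fold change of this list was 0.126, 0.821, 1.755 and 0.996, against a median of all genes between -0.01 and 0.08. With the combination the actin-binding gene TAGLN rose from 4.08 and 2.2 CPM in untreated A549 to 238 and 231 CPM (log2 fold change 6.22, SE 0.13, adjusted p = 4.59e-14 in edgeR). The collagen gene COL1A1 rose from 1.92 ± 0.0213 to 73.6 ± 0.121 CPM and COL4A1, a basement membrane collagen, from 2.90 ± 0.325 to 63.7 ± 0.971 CPM (SD, n = 2). The list holds the cell cycle inhibitor gene CDKN1A, with a log2 fold change of 4.03 there. In SUM159, PF-06873600 raised 11 of the 17 and lowered 6, with a median of 0.87, where 38.1% of all genes were higher and 35.6% lower. There TAGLN fell from 25.7 and 26.3 CPM to 17.4 and 15.5 CPM (-0.67, SE 0.09, adjusted p = 1.17e-05 in edgeR), while COL1A1 rose from 1599 and 1699.6 CPM to 3133 and 3257 CPM.

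Most BMP response genes responded to PF-06873600 differently in the lines. Of 11 genes, 0 rose and 2 fell with palbociclib in A549 (median log2 fold change 0.06, 15.7% of all genes called), 7 rose and 1 fell with indisulam, 6 rose and 3 fell with the combination and 7 rose and 2 fell with PF-06873600 in A549, with a median log2 fold change of 0.68, 0.42 and 0.33 and with 45.5%, 65.2% and 56.3% of all genes called. In SUM159, 3 of 10 rose and 6 fell with PF-06873600, with a median of -0.65, where 73.7% of all genes were called. The difference between the lines was above 0 for 1 and below 0 for 8 of the 11 genes by its own test, which called 53% of all genes. The inhibitors of differentiation ID1 and ID3, direct targets of BMP SMADs, fell furthest. ID1 went from 108 and 102 CPM to 7.19 and 7.99 CPM (-3.78, SE 0.08, adjusted p = 2.14e-14 in edgeR) and ID3 from 91.4 and 89.997 CPM to 7.89 and 6.29 CPM (-3.69, SE 0.09, adjusted p = 8.5e-14). In the same SUM159 libraries BMP2 and BMP4 rose, as given above. In A549 treated with PF-06873600, the log2 fold change was 1.504 for ID3 and 0.33 for ID1, both called higher, and the difference between the lines passed for both (-5.19 and -4.11, adjusted p = 2.98e-16 and 1.87e-14).

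**Figure D5:**
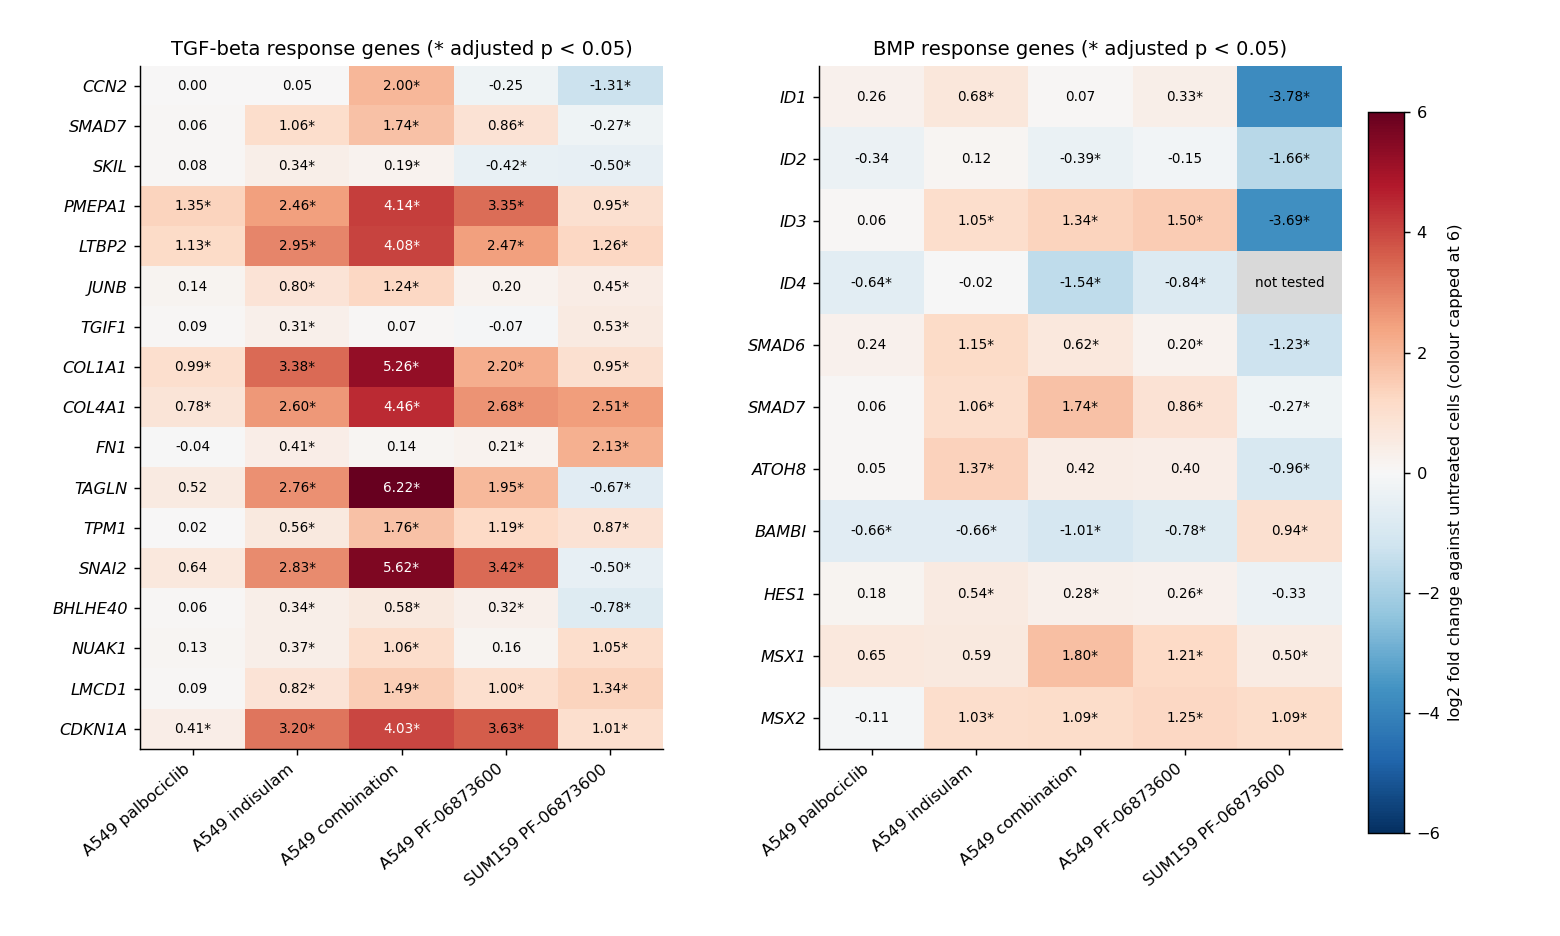
Log2 fold change against untreated cells of the same line for genes known to respond to TGF-beta (left) and to BMP (right) in the 5 comparisons with untreated cells, from edgeR, with an asterisk for an adjusted p under 0.05. With the combination 15 of 17 TGF-beta response genes rose in A549, and ID1 and ID3 show the largest falls in SUM159.

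Among 13 genes for the latency and activation of TGF-beta, 3 rose and 1 fell in A549 with palbociclib, 9 rose and 1 fell with indisulam and again with the combination, and 8 rose and 2 fell with PF-06873600. The share of all genes called higher was 8.3%, 28%, 35.1% and 28.5%. In SUM159 11 rose and 1 fell, where 38.1% of all genes were higher and 35.6% lower. The matrix proteins LTBP2 and FBN1, the latter of which anchors latent TGF-beta complexes, rose with the combination from 9.49 ± 0.035 to 160.1 ± 7.08 CPM and from 19.4 ± 2.5 to 236 ± 0.891 CPM (SD, n = 2). The convertase PCSK6 rose in SUM159 from 18.7 and 18.6 CPM to 75.2 and 72.2 CPM. Of 9 extracellular antagonists tested in A549 4 rose and 3 fell with the combination, where 65.2% of all genes were called. The activin-binding FSTL3 rose from 38.6 and 32.5 CPM to 266 and 245 CPM (2.85, SE 0.08, adjusted p = 4.75e-13 in edgeR), opposite to FST. In SUM159, 5 of 7 rose and 1 fell, where 73.7% of all genes were called. DCN rose there from 81.4 and 78.3 CPM to 834 and 869 CPM and NBL1, a BMP antagonist, from 29.6 and 28.1 CPM to 63.8 and 66.0 CPM. FSTL3 was lower with PF-06873600 in SUM159, at 70.8 and 71.9 CPM against 116.3 and 116.4 CPM untreated.

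Of 13 receptor genes tested, 4 rose and 3 fell in A549 with the combination, 1 rose and 6 fell with PF-06873600, and 9 rose and 3 fell in SUM159. Of all genes 65.2%, 56.3% and 73.7% were called in these comparisons, so the share of receptor genes called in A549 was no larger than that. BMPR1B, a type I BMP receptor, fell with the combination from 58.6 and 63.5 CPM to 23.2 and 22.9 CPM (-1.40, SE 0.08, adjusted p = 1.34e-09 in edgeR) and the activin type II receptor ACVR2B with PF-06873600 from 19.4 and 19.5 CPM to 7.73 and 8.22 CPM. The type I receptor ACVRL1 rose with the combination from 5.78 and 5.53 CPM to 12.2 and 12.3 CPM. Of 15 SMADs and SMAD regulators, 8 rose and 1 fell with the combination in A549, where 65.2% of all genes were called. With PF-06873600 4 rose and 3 fell in A549 and 4 rose and 10 fell in SUM159, where 56.3% and 73.7% of all genes were called. SMAD3 rose with the combination from 251 and 256 CPM to 528 and 529 CPM (1.06, SE 0.05, adjusted p = 2.04e-10) and the inhibitory SMAD7 from 8.63 and 9.07 CPM to 28.6 and 30.7 CPM, while SMAD6 fell in SUM159 from 15.5 and 15.9 CPM to 6.43 and 6.90 CPM.

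Only 9 of 25 other ligand genes of the family were high enough to test in A549. With the combination 3 rose and 4 fell, where 65.2% of all genes were called. GDF11 rose with PF-06873600 from 21.8 and 26.5 CPM to 64.5 and 66.0 CPM, BMP6 fell with the combination from 21.2 and 22.1 CPM to 11.3 and 10.7 CPM, and AMH was 12.7 and 9.71 CPM with indisulam against 7.82 and 1.87 CPM in untreated cells (1.21, SE 0.39, adjusted p = 0.0208 in edgeR). Among 5 transcription factors known to bind the GDF15 promoter, 0 rose and 3 fell with palbociclib in A549, 3 rose and 2 fell with indisulam and with the combination, and 1 rose and 2 fell with PF-06873600, where 15.7%, 45.5%, 65.2% and 56.3% of all genes were called. ATF3 rose with the combination from 9.52 and 9.87 CPM to 55.8 and 59.5 CPM. DDIT3 fell with PF-06873600 in A549 from 24.4 and 26.4 CPM to 8.88 and 10.1 CPM, and EGR1 fell with it in SUM159 from 37.0 and 33.4 CPM to 16.8 and 15.2 CPM (-1.14, SE 0.09, adjusted p = 2.53e-08 in edgeR).

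The genes whose level followed each member most closely were sought among 11312 genes by Pearson's r of log2(CPM + 1) over the 14 libraries. These libraries fall into 7 groups and 2 lines, so r describes a shared pattern over groups. TGFB2 was closest to EPHB2 (r = 0.981), NTN4 and CMTM3, TGFBI to ADGRF4 (r = 0.995), SHANK3 and the basement membrane collagen gene COL4A2, and GDF15 to RHOU (r = 0.994), DDR1 and ZNF226. BMP2 was closest to SYTL2 (r = 0.99), TNFAIP8 and LZTS3, and BMP4 to GEM (r = 0.977), TRIB1 and TNFRSF10B. For INHBB, HOXB8 (r = 0.999) and FLRT3 were among the closest.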

How the data were processed

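RNA from A549 and SUM159 cells was sequenced as 14 stranded poly(A) libraries in 7 groups of 2, with single-end reads. The authors aligned reads to GRCh38 and deposited, for each library, whole-number counts of reads per Ensembl gene without normalization. The submitters' processing notes name HISAT2 2.2.1 and HTSeq, whose version, annotation release and strand setting are not given in the sources used here. Reads that were not assigned to a gene stand in 9 summary lines, which stayed out of totals and tests. Groups came from the sample titles. Symbols and coordinates of 60370 of 60683 identifiers were taken from GENCODE release 44.

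CPM was computed from the total count on genes, between 13060374 and 21149256 per library. Genes kept by filterByExpr were tested with the quasi-likelihood F test of edgeR 4.0.16 in R 4.3.3, scaled by total count, with Benjamini-Hochberg adjustment over all genes tested and a threshold of 0.05. The model of A549 held 10 libraries and 15780 genes, that of SUM159 4 and 15055, and that of both lines, used for differences between them, 14 and 17279. Standard errors were derived from each log2 fold change and its F statistic. Intervals of count ratios are exact and cover counting error only. The scripts were tested on simulated data. Alternatives were TMM factors, DESeq2 1.42.0, all genes without a low-count filter, a higher filter (mean count of 50), models of only the compared groups, the replicate number as a block, and leaving out single libraries.

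The members and gene lists were chosen with earlier results of these data known. Besides the members, the text names up to 3 genes of each list with the largest change in a comparison with untreated cells, among genes past the threshold whose higher group averages 10 CPM or more, and the 3 genes most alike by Pearson's r for members that reach 10 CPM and span at least 1 on the log2(CPM + 1) scale. CDKN1A, the values of TAGLN, COL1A1 and FSTL3 in SUM159 and the marker CD3E lie outside this rule. The lists share SMAD6, SMAD7, SKIL, LTBP2, TGIF1 and BAMBI. Promoter sequences are those of RefSeq (GRCh38.p14). One gene most like INHBB and 2 genes of the lists are not reported here, and the list counts leave them out. Tables were handled in Python 3.11.15 with pandas 2.3.3 and numpy 2.4.6, and figures drawn with matplotlib 3.10.9.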

Additional observations from a re-analysis of the deposited data

Results flagged for a closer look

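The change with PF-06873600 differed between SUM159 and A549 for 6 of the 10 genes by edgeR's test of the difference itself. The same test, in the model of both lines, called 53% of all genes. The 6 are listed because they passed it. On the log2 scale the SUM159 change minus the A549 change was 4.064 for GDF15, 1.16 for BMP2 and 0.8845 for BMP4, and -0.6249 for TGFB1, -1.222 for TGFB2 and -1.305 for TGFBI. Treated and untreated libraries did not overlap for any of these genes in either line. PF-06873600 against untreated cells called 56.3% of all genes in A549 and 73.7% in SUM159. For TGFB1 in SUM159 the gap was narrow, 153 CPM untreated against 155 CPM treated. Its change there did not pass (adjusted p = 0.0928 in edgeR). Growth medium differs with the line, so line and medium cannot be told apart. In SUM159 the summed markers of other cell types rose from between 120 and 121 CPM to between 947 and 985 CPM. Of these, DCN alone went from a mean of 79.8 to 851 CPM. The part of this rise in the differences was not tested.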

How the results depend on the processing

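Of 10 comparisons over all genes, only the count for palbociclib in A549 (2478 calls) moved by over 1.5 times under a planned or added alternative. It was 1584 with DESeq2 and 949 with only the compared groups, and 1301 to 3331 when a library was left out, lowest without palbociclib replicate 2 and highest without untreated replicate 1. The members called there, 4 in the model of all A549 libraries, numbered 2 with only the compared groups and 2 to 5 with a library left out, lowest without untreated replicate 2 or palbociclib replicate 2 and highest without untreated replicate 1. The TGFB1 interaction was 0.003227 with DESeq2.

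With a library left out, these uncalled log2 fold changes crossed 0. TGFB3 ranged from -0.7174 to 0.1782 with palbociclib, -0.4205 to 0.475 with indisulam, -0.1837 to 0.7117 with the combination, -0.4899 to 0.4057 with PF-06873600 in A549 and -0.2489 to 0.6471 for the difference between lines. GDF15 and BMP2 with palbociclib ranged from -0.07443 to 0.2809 and from -0.02146 to 0.1106, INHBB between the combination and palbociclib from -0.1415 to 0.0427, the interaction of TGFB1 from -0.189 to 0.1297 and of FST from -0.05428 to 0.5652, and INHBA for the difference between lines from -1.155 to 3.627. The cause was not tested.

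The labels number replicates 1 and 2 in each group but tie them to no shared culture or day, and deviations of same-numbered libraries correlated at -0.327 to 0.294. With the replicate block, palbociclib gave 2337 calls and 3 members, indisulam 7073 and 8, the combination 10208 and 8, and PF-06873600 8783 and 8 in A549. With crossed palbociclib numbers, a pairing added after seeing a correlation of -0.327, the count was 3023, and with crossed untreated SUM159 numbers (-0.27) the count between lines was 13575 against 13607.

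Genes under about 1 CPM, such as INHBA in A549 and INHBB in SUM159, rest on a few counts.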
